A study of Mus musculus with 9 samples.

Results

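The genes described here mark the blood vessels of the brain. Of the 36 genes, 26 are known mainly from endothelial cells, which line the vessels and form the blood-brain barrier, and 10 from mural cells, the pericytes and smooth muscle cells wrapped around them. They were taken by gene symbol, and all 36 were found among the 20591 rows of the deposited gene count table. RNA-seq had been made from lysate of the substantia nigra, the midbrain region that holds dopamine neurons, of wild type C57BL/6 mice. All mice, those fed freely included, had undergone sham surgery and were 12 weeks old when allocated to a diet. The first group was fasted for 1 day, a fast of 24 hours begun 2 hours before lights off (3 libraries). The second was kept for 1 week on intermittent fasting (IF), with 3 such fasts per week (3 libraries). The third ate ad libitum for 1 week and was moved between cages on the same schedule (3 libraries). Water was always available. Whether each library came from its own mouse is not stated in the labels, so p-values reflect only how these libraries spread, which may be partly technical. The sources used here do not give how long after a fast the tissue was taken.

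Endothelial cells of the brain are sealed to each other by tight junctions, so that most nutrients can enter only through transport proteins in the cell membrane, while efflux pumps return foreign compounds to the blood. Pericytes lie in the basement membrane of capillaries and are recruited by platelet-derived growth factor B from the endothelium, and smooth muscle cells encircle arterioles and set their diameter. Several of these genes are not private to vessels: astrocytes and oligodendrocytes also use Slc2a1 and Slc16a1, neurons also use Slc7a5, and Tjp1 is made by many cell types. In RNA of whole tissue, fewer vessel cells and less RNA per vessel cell cannot be told apart.

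Library totals lay between 36109995 and 54248856 counts. All 36 genes passed the filter on low counts, and the lowest count of any of them in a library was 26, for Higd1b. The dopaminergic markers Th, Slc6a3 and Slc18a2 were present in each library, at 76.1 to 296 CPM (read counts scaled to library size on the TMM scale), 184 to 526 CPM and 89.8 to 202 CPM. In each fasted group replicate 2 stood apart, with an estimated quality weight of 0.213 in the 1 day group and 0.507 in the IF group, against 0.972 to 1.93 in the other 7 libraries. By a chi-square of the counts per gene, ad libitum replicate 2 differed most from its own group, at 158.6 and 240.9, against 39.1 to 128.4 for the other pairs within groups, although its quality weight was not low. Values without it are given with each vessel gene called. Markers of neighbouring tissue also varied. The 6 cortical neuron markers summed to 560.5 CPM in IF replicate 3 and to 11 to 65.6 CPM elsewhere, and the 5 blood cell genes measured summed to 1506 CPM in IF replicate 3 and to 282 to 623 CPM elsewhere. The 8 choroid plexus markers summed to 392 CPM in ad libitum replicate 3 and to 21.3 to 60.1 CPM elsewhere.

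Per kilobase of exon, the vessel genes with the highest level in the ad libitum group were Vtn, the pericyte gene for vitronectin, at 44.1 CPM per kilobase, and Slc2a1 at 39.8. Rgs5, a regulator of G protein signalling typical of pericytes, followed at 23.3 and Cldn5, the main tight junction claudin of brain endothelium, at 23.2 CPM per kilobase. Des at 0.957 and Apold1 at 1.23 CPM per kilobase had the lowest levels. Exon lengths came from an annotation of another build, matched by gene, and the isoforms in use were not measured.

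The vessel genes did not move as 1 block. After a 1 day fast 1 of the 26 endothelial genes, Apold1, rose by edgeR's quasi-likelihood test with adjustment over all genes, and no gene of the 36 fell. Among all 20535 genes tested the same rule called 0.0584% in either direction. The 36 genes were chosen with earlier results of these data known, so counts among them are descriptions and no test of the list. After 1 week of IF the endothelial transporter genes Slc2a1 and Slc7a5 rose and none fell, where the rule called 0.307% of all genes. None of the 10 mural genes passed in either comparison by edgeR, by DESeq2 or by limma's voom with quality weights. At an unadjusted p under 0.05 there were 0 mural genes after 1 day and 2, both higher, after 1 week. Of the endothelial genes 6 (23.1%) were higher and 8 (30.8%) lower after 1 day. After 1 week 4 endothelial genes (15.4%) were higher and 4 (15.4%) lower. Among all genes 4.37% were higher and 4.9% lower after 1 day, and 6.33% and 4.9% after 1 week.

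**Figure D1:**
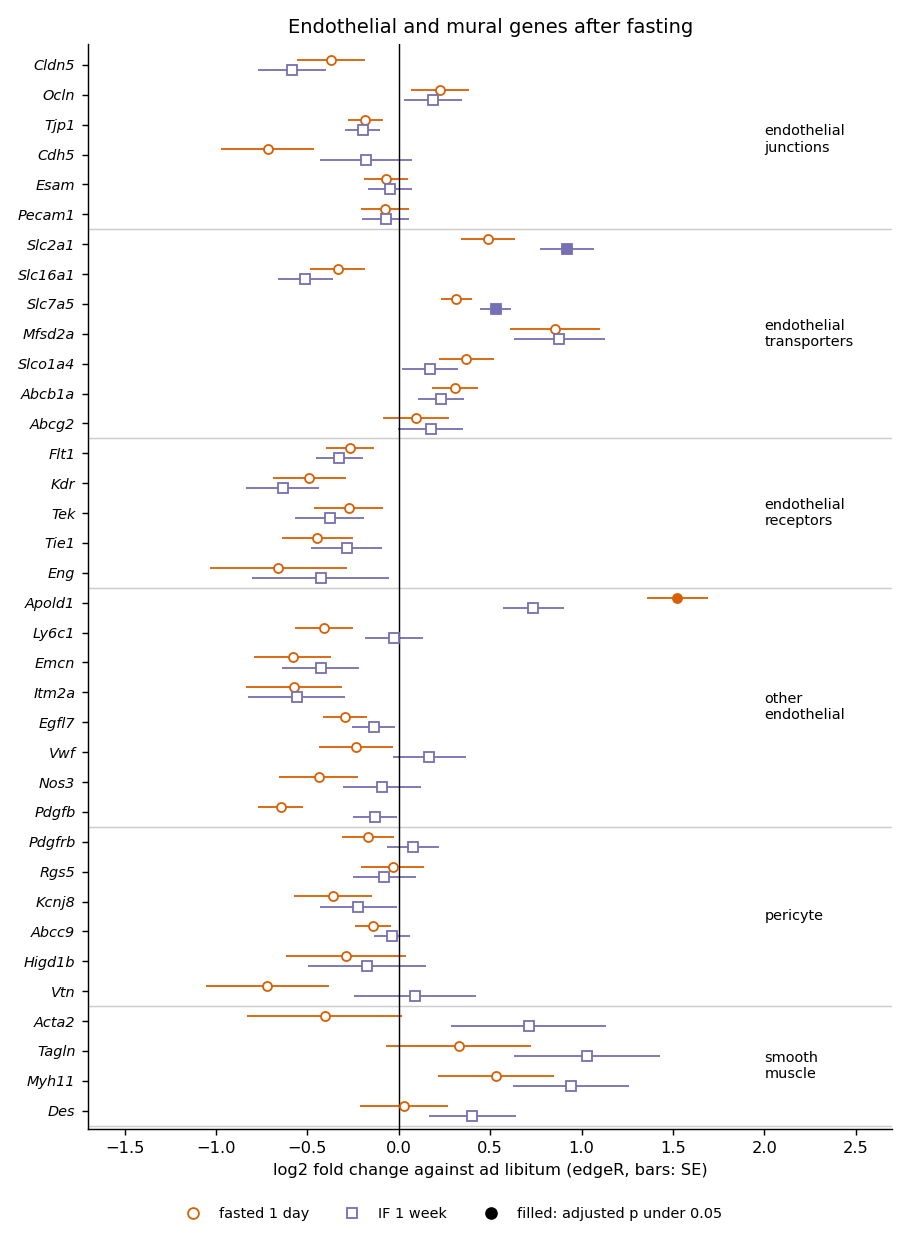
Log2 fold change of each of the 36 genes against the ad libitum group, with the SE as bars, after a 1 day fast (circles) and 1 week of IF (squares), in blocks by role. Filled symbols mark the 3 genes past an adjusted p of 0.05: Apold1 at 1.52 after 1 day, and Slc2a1 at 0.92 and Slc7a5 at 0.53 after 1 week.

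Libraries of the compared groups did not overlap for some genes that missed the threshold. After the 1 day fast 4 endothelial genes (15.4%) lay above all ad libitum libraries, where 8.17% of all genes did, and 10 (38.5%) lay below them, where 10.3% of all genes did. The 4 were Slc2a1, Slc7a5, Abcb1a and Apold1. The 10 were Tjp1, Cdh5, Slc16a1, Flt1, Eng, Ly6c1, Emcn, Itm2a, Egfl7 and Pdgfb. After 1 week of IF 4 endothelial genes lay above (Slc2a1, Slc7a5, Mfsd2a and Apold1; 15.4%) and 3 below (Tjp1, Slc16a1 and Kdr; 11.5%), where 10.9% and 11.5% of all genes did. The median log2 fold change of the endothelial genes was -0.27 after 1 day and -0.11 after 1 week, where that of all genes was 0.00 in both. Without IF replicate 2 the 1 week median was 0.01. Both comparisons use the same 3 ad libitum libraries.

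Transport across the endothelium was the role with the 2 calls of the IF group. At an unadjusted p under 0.05, 5 of the 7 transporter genes (71.4%) were higher and 1 (14.3%) lower after 1 day. After 1 week 3 (42.9%) were higher and 1 (14.3%) lower. Among all genes 4.37% were higher and 4.9% lower after 1 day, and 6.33% and 4.9% after 1 week. Slc2a1 encodes GLUT1, the carrier that brings glucose across the barrier. Its level was 213, 277 and 247 CPM after 1 week of IF (246 ± 32.3 CPM, mean ± SD, n = 3), against 117, 135 and 138 CPM in the ad libitum group (129.9 ± 11.1 CPM). The lowest IF library was above the highest ad libitum library, and the log2 fold change was 0.92 (SE 0.15, 1.89-fold, adjusted p = 0.0380). In the 1 day group the level was 211, 187 and 149 CPM, also clear of the ad libitum libraries, but the log2 fold change of 0.49 (SE 0.15) did not pass (adjusted p = 0.418).

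The proximal promoter of Slc2a1 is shown because the gene passed the test. RefSeq places the window at chr4:119108495-119108794, plus strand, build GRCm38.p6, from 250 bases before the annotated start to 50 after it, and the capitals mark a TATAAA match that begins 28 bases after the start.
Slc2a1: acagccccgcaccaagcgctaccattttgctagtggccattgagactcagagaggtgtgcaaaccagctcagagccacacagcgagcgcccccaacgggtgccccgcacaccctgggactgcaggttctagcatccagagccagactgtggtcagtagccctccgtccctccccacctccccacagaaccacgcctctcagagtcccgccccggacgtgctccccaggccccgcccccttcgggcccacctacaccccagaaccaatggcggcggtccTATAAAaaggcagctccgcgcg
On either strand, TATAAA was found in 13.6% of all 32851 RefSeq windows of 300 bases. The forkhead letters GTAAACA (3.65% of windows), the glucocorticoid hexamer TGTTCT (19%), the core cyclic AMP letters TGACG (20.8%) and the E-box CACGTG (7.15%) had no match in the Slc2a1 window.

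Slc7a5 encodes LAT1, which carries large neutral amino acids and L-DOPA. It was at 117, 109.8 and 103 CPM after 1 week of IF (110.0 ± 6.64 CPM, n = 3), against 75.7, 76.0 and 76.8 CPM in the ad libitum group (76.2 ± 0.559 CPM). The spread of the ad libitum libraries was the smaller one, and the groups were apart. This gave a log2 fold change of 0.53 (SE 0.09, 1.44-fold, adjusted p = 0.0381). After 1 day the level was 96.2, 96.5 and 91.6 CPM, between the other groups, with a log2 fold change of 0.32 against ad libitum (SE 0.09, adjusted p = 0.373 by edgeR and 0.0194 by DESeq2).

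Both IF calls lay near the threshold. Without any one of the 3 ad libitum libraries the adjusted p for 1 week of IF was 0.173 to 0.227 for Slc2a1 and 0.20 to 0.237 for Slc7a5. The calls were also lost without 1 day replicate 1 (0.0527 and 0.0634), without IF replicate 2 (0.141 and 0.132) and without IF replicate 3 (0.132 and 0.0967). Slc7a5 was lost without IF replicate 1 (0.0911), and Slc2a1 without both libraries that stood apart (0.0833).

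Mfsd2a encodes the carrier of lysophosphatidylcholine, the form in which the omega-3 fatty acid DHA enters the brain, and holds down vesicle traffic across the endothelium. The 1 day libraries held 42.3, 19.9 and 44.3 CPM, those of 1 week of IF 34.5, 34.4 and 39.2 CPM, and those fed ad libitum 19.6, 20.1 and 19.2 CPM. Replicate 2 of the 1 day group was at the ad libitum level, and the other 5 fasted libraries were above all ad libitum ones. The log2 fold change was 0.86 after 1 day (SE 0.25, adjusted p = 0.407) and 0.88 after 1 week (SE 0.25, adjusted p = 0.215). Without 1 day replicate 2 it was 1.14 after 1 day (adjusted p = 0.00281) and 0.89 after 1 week (adjusted p = 0.00373), and with both libraries that stood apart left out the adjusted p was 0.00613 and 0.00690. Voom with quality weights, which counts those libraries for less, also called it in both comparisons (adjusted p = 0.0231 after 1 day and 0.0244 after 1 week). Of the 17 alternatives 3 called it after 1 day (adjusted p between 0.00281 and 0.828) and 5 after 1 week (0.00373 to 0.541).

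**Figure D2:**
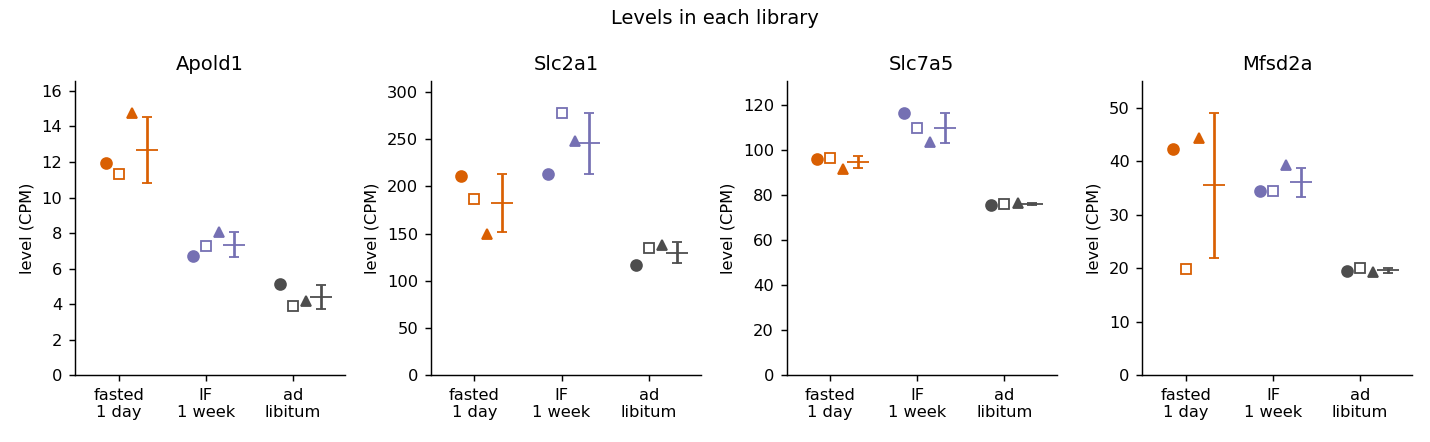
Level in CPM of Apold1, Slc2a1, Slc7a5 and Mfsd2a in each library (circles, squares and triangles for replicates 1, 2 and 3), with the mean and SD of 3 libraries beside them. Mfsd2a in 1 day replicate 2 was at 19.9 CPM, beside 19.2 to 20.1 CPM in the ad libitum group.

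The remaining carriers did not pass. Slc16a1 encodes MCT1, the carrier of lactate and ketone bodies. It was at 42.8, 51.1 and 48.8 CPM after 1 day and 50.1, 34.6 and 41.5 CPM after 1 week of IF, against 62.1, 51.8 and 66.0 CPM in the ad libitum group. Each fasted library was thus below each ad libitum one, the closest pair being 51.1 CPM in a 1 day library and 51.8 CPM in an ad libitum one, with log2 fold changes of -0.33 after 1 day (adjusted p = 0.537) and -0.51 after 1 week (adjusted p = 0.227). Slco1a4, an organic anion carrier, had log2 fold changes of 0.37 and 0.17 (adjusted p = 0.528 and 0.734). The efflux pump genes Abcb1a (P-glycoprotein) and Abcg2 had 0.31 and 0.09 after 1 day and 0.23 and 0.17 after 1 week, with adjusted p between 0.525 and 0.854. Reads of Abcb1a and its close paralog Abcb1b can be hard to divide, which makes its level less certain.

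Added up, the 7 transporter genes gave 519, 519 and 469 CPM after 1 day and 559, 578 and 559 CPM after 1 week of IF, against 379.9, 394 and 428 CPM in the ad libitum group. Without Slc2a1 and Slc7a5 the sum was 212, 236 and 228 CPM after 1 day and 230.1, 192 and 208 CPM after 1 week, against 187, 184 and 213 CPM. The difference in the first sum was therefore carried mostly by these 2 genes, and the second sum overlapped between groups. The ratio of the transporter sum to the junction sum was 2.25, 2.19 and 2.16 after 1 day and 2.23, 2.79 and 2.41 after 1 week, against 1.58, 1.46 and 1.51 in the ad libitum group. Tjp1, which many cell types make, averaged 153 CPM in the ad libitum group, where the junction sum averaged 264 CPM. The ratio therefore rests largely on Slc2a1, Slc7a5 and Tjp1, genes that other cells also use. These sums and ratios are descriptions with no test.

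Astrocytes, which also use Slc2a1, were followed by 10 markers. After 1 week of IF 4 of them lay above all ad libitum libraries, where 10.9% of all genes did, and none lay below. After 1 day 1 lay above and 2 below, where 8.17% and 10.3% of all genes did. The summed level was 5062 to 5602 CPM after 1 day and 5272 to 5626 CPM after 1 week, against 4985 to 5149 CPM in the ad libitum group, and no marker was at 0. After 1 week, where edgeR called 0.307% of all genes, 1 gene of the list passed. This was Gjb6, a gap junction connexin of astrocytes, at 95.4, 104 and 89.6 CPM after 1 day and 112, 115 and 108 CPM after 1 week, against 53.9, 74.4 and 66.9 CPM in the ad libitum group. Its log2 fold change after 1 week was 0.78 (SE 0.12, adjusted p = 0.0364), and 8 of 17 alternatives called it. The call was lost without 1 day replicate 1 (adjusted p = 0.0659), IF replicate 1, 2 or 3 (0.0712, 0.135 and 0.114), ad libitum replicate 1, 2 or 3 (0.179, 0.0947 and 0.188) or both libraries that stood apart (0.0566). After 1 day 0 markers passed by edgeR (3 at an unadjusted p under 0.05) or voom, and DESeq2 called Gjb6 alone. The part of astrocytes in the Slc2a1 values was not tested.

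Apold1 (apolipoprotein L domain containing 1, known as an immediate early gene of endothelial cells) had the largest fold change of the 36 genes after 1 day. It stood at 11.9, 11.3 and 14.8 CPM after the 1 day fast (12.7 ± 1.85 CPM, n = 3), 6.69, 7.25 and 8.09 CPM after 1 week of IF (7.34 ± 0.704 CPM), and 5.13, 3.88 and 4.20 CPM in the ad libitum group (4.40 ± 0.652 CPM). The 3 groups did not overlap, with the IF group in the middle. Its log2 fold change after 1 day was 1.52 (SE 0.17, 2.87-fold, adjusted p = 0.0160). After 1 week it was 0.74 (SE 0.17, adjusted p = 0.124 by edgeR and 0.00485 by DESeq2). The 1 day call passed in 11 of 17 alternative analyses and was lost without 1 day replicate 1 (adjusted p = 0.116) or 3 (0.0707), and without ad libitum replicate 1 (0.0712), 2 (0.142) or 3 (0.103).

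The promoter window of Apold1 is chr6:134981751-134982050, plus strand (RefSeq, GRCm38.p6). Its capitals mark, in order, a TGACG match on the reverse strand, read here as CGTCA and beginning 52 bases before the annotated start, and a TATAAA match beginning 32 bases before it.
Apold1: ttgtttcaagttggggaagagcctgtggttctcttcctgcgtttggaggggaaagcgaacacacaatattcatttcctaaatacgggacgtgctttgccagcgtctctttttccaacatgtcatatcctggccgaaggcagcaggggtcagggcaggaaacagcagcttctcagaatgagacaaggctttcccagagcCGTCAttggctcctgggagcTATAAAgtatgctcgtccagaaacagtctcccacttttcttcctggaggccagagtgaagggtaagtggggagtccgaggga
Of the 36 genes 25 had 1 or more RefSeq windows, 31 windows in all, and Slc7a5 was not among them. TGACG was in 8 of these 31 windows, from 7 genes, and in 20.8% of all windows. TATAAA was in 7 of the 31, from 6 genes, and in 13.6% of all windows. The palindromic cyclic AMP element TGACGTCA, which contains TGACG, was in 1.79% of all windows and in those of Abcg2 and Flt1. The full glucocorticoid element (0.0487% of all windows) and the CArG box of smooth muscle genes (1.63%) were in none of the 31. A match is only a match of letters, and its absence says nothing of a factor.

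**Figure D3:**
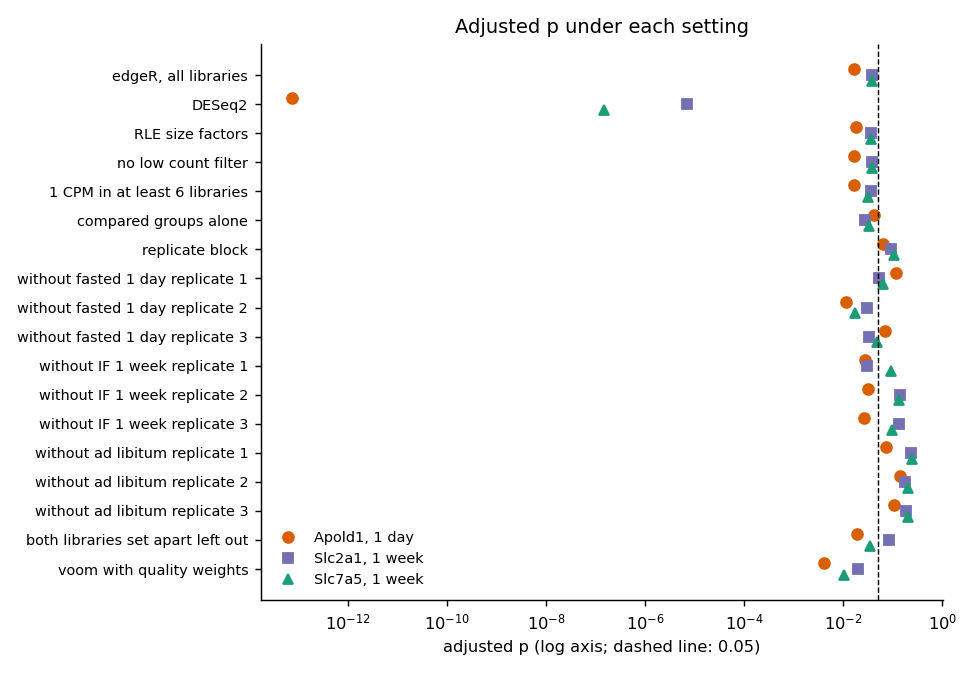
Adjusted p on a log axis for Apold1 after 1 day (circles) and for Slc2a1 (squares) and Slc7a5 (triangles) after 1 week of IF, in edgeR with all libraries and in 17 alternative analyses; the dashed line is 0.05. Without ad libitum replicate 1, 2 or 3 the calls of all 3 genes were lost, at an adjusted p of 0.0712 to 0.237.

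Of the 6 junction genes 5 had lower mean levels in both fasted groups, and 0 passed by edgeR, DESeq2 or voom with quality weights. At an unadjusted p under 0.05, 1 (16.7%) was lower in each comparison, where 4.9% of all genes were. Cldn5 was at 27.6, 22.7 and 25.8 CPM after 1 day and 27.0, 18.6 and 19.9 CPM after 1 week of IF, against 25.8, 40.1 and 32.5 CPM in the ad libitum group. The groups overlapped, with log2 fold changes of -0.37 (adjusted p = 0.546) and -0.58 (adjusted p = 0.270). Tjp1, which encodes the scaffold ZO-1, had the narrower spread. It was at 130.3, 144 and 129.7 CPM after 1 day and 141, 126 and 133 CPM after 1 week, against 146, 149 and 163 CPM. Each fasted library was below each ad libitum one, by a small step (log2 fold changes of -0.18 and -0.20, adjusted p = 0.554 and 0.480).

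Cdh5, which encodes the adherens junction protein VE-cadherin, was at 18.2, 11.2 and 15.1 CPM after 1 day and 24.6, 14.5 and 25.6 CPM after 1 week of IF, against 18.7, 26.1 and 28.5 CPM. In both fasted groups replicate 2 was the lowest. The log2 fold change was -0.72 after 1 day (SE 0.25, adjusted p = 0.485) and -0.18 after 1 week (SE 0.25, adjusted p = 0.841). Ocln (occludin) was the junction gene with positive values, 0.22 and 0.19 on the log2 scale (adjusted p = 0.617 and 0.717). Esam and Pecam1, adhesion molecules between endothelial cells, lay between -0.08 and -0.05 in both comparisons.

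All 5 receptor genes had negative log2 fold changes in both comparisons, and 0 of 5 passed by edgeR, DESeq2 or voom with quality weights. At an unadjusted p under 0.05, 2 (40%) were lower in each comparison, where 4.9% of all genes were. Flt1 and Kdr encode the VEGF receptors VEGFR1 and VEGFR2. Kdr was at 14.9, 22.1 and 14 CPM after 1 day and 16.8, 13.3 and 15.9 CPM after 1 week of IF, against 18.9, 25.3 and 27.3 CPM in the ad libitum group. The IF libraries were all below the ad libitum ones and 1 day replicate 2 was within their range (log2 fold changes of -0.49 and -0.64, adjusted p = 0.525 and 0.263). Flt1 averaged 94.9 ± 4.30 CPM after 1 day and 91.2 ± 15.8 CPM after 1 week, against 114 ± 9.80 CPM (n = 3 each; -0.27 and -0.33, adjusted p = 0.544 and 0.383). For the angiopoietin receptor Tek the log2 fold changes were -0.27 and -0.38, and for the related Tie1 -0.45 and -0.29.

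Eng, the co-receptor endoglin of the TGF-beta family, rested on 1 library. It was at 24.7, 7.93 and 23.8 CPM after 1 day and 26.3, 16.3 and 23.7 CPM after 1 week of IF, against 25.1, 32.0 and 32.2 CPM. Replicate 2 was the lowest in both fasted groups, and these are the libraries that stood apart. The log2 fold change after 1 day was -0.66 (SE 0.37, adjusted p = 0.575) with all libraries and -0.29 without 1 day replicate 2.

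**Figure D4:**
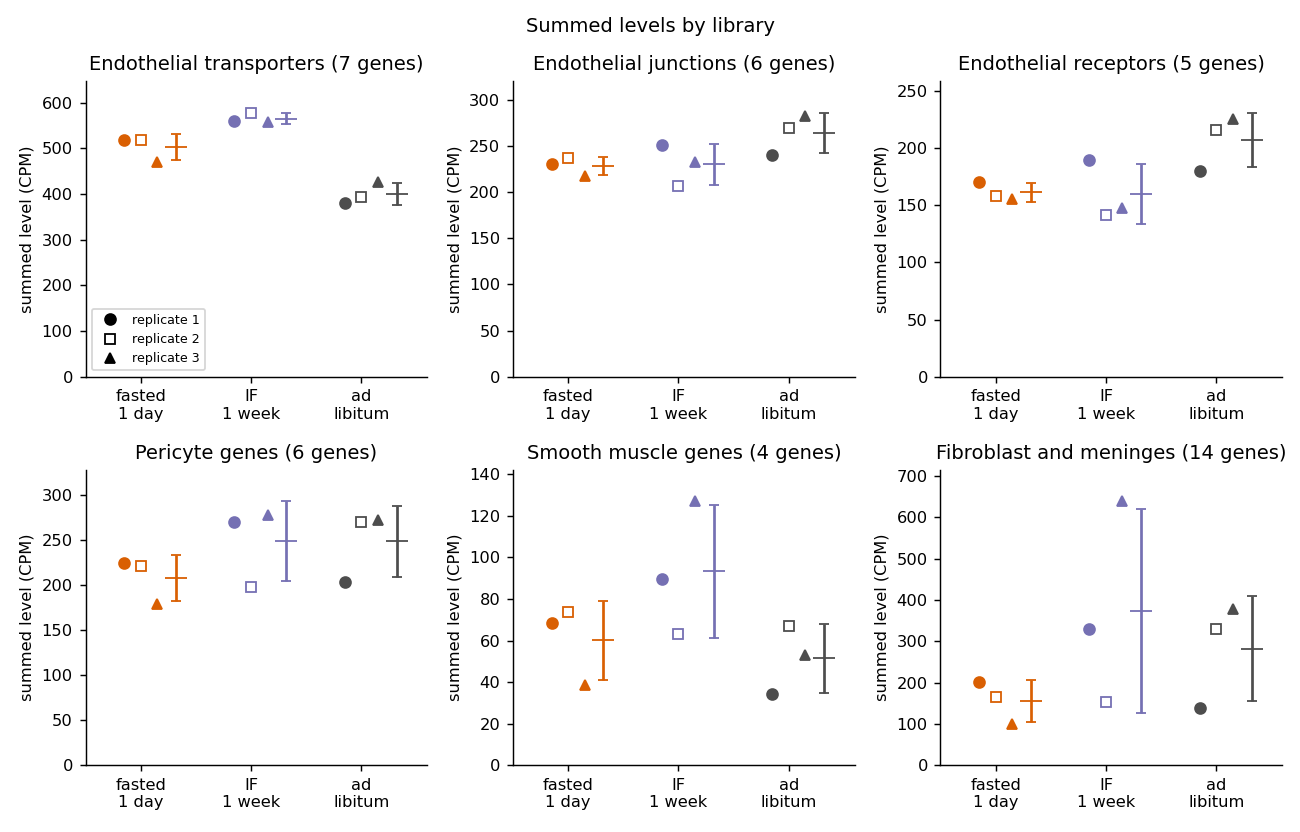
Summed level in CPM of 5 groups of vessel genes and of 14 fibroblast and meninges markers in each library, with the mean and SD of 3 libraries; axes start at 0. The transporter sum is 469 to 578 CPM in the fasted and IF libraries and 379.9 to 428 CPM in the ad libitum ones, while the smooth muscle sum and the fibroblast sum both peak in IF replicate 3, at 127 and 638 CPM.

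Of the 8 other endothelial genes, Apold1 included, 1 (12.5%) was higher and 4 (50%) lower at an unadjusted p under 0.05 after 1 day. After 1 week 1 (12.5%) was higher and 0 were lower. Among all genes 4.37% were higher and 4.9% lower after 1 day, and 6.33% and 4.9% after 1 week. Pdgfb, the growth factor that attracts pericytes, was at 15.4, 12.2 and 13 CPM after 1 day and 19.0, 19.8 and 19.2 CPM after 1 week of IF. In the ad libitum group it was at 18.9, 23.1 and 21.5 CPM. The 1 day libraries lay below all others, while the IF libraries overlapped with the ad libitum range. The log2 fold change after 1 day was -0.65 (SE 0.12, adjusted p = 0.136 by edgeR and 0.00111 by DESeq2), and after 1 week -0.13 (SE 0.12, adjusted p = 0.747). Its receptor gene Pdgfrb, on pericytes, is described with the mural genes. Nos3, the endothelial nitric oxide synthase, averaged 11.6 ± 2.61 CPM after 1 day and 14.8 ± 1.76 CPM after 1 week, against 15.8 ± 3.89 CPM (n = 3 each; adjusted p = 0.544 and 0.908).

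The surface markers Ly6c1 and Emcn (endomucin) and the membrane protein gene Itm2a had log2 fold changes of -0.41, -0.58 and -0.57 after 1 day, with adjusted p of 0.489 to 0.543. After 1 week of IF the values were -0.03, -0.43 and -0.56, with adjusted p of 0.471 to 0.971. Itm2a in IF replicate 2 was at 10.5 CPM, its lowest value, beside 22.4 and 19.4 CPM in the other IF libraries. Ly6c1 has a near-identical neighbour, Ly6c2, which leaves its level less certain. Egfl7, a secreted protein of the endothelium, had -0.29 after 1 day and -0.14 after 1 week (adjusted p = 0.525 and 0.720). Vwf, the clotting factor gene strongest in larger vessels, was at 59.3, 46.1 and 35.6 CPM after 1 day and 64.8, 53.2 and 67.9 CPM after 1 week, against 44.7, 53.5 and 67.4 CPM, with wide overlap (adjusted p = 0.677 and 0.812).

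Other cell types differed between the groups too. After 1 day 6 of 10 oligodendrocyte markers and 7 of 10 microglia markers lay below all ad libitum libraries, where 10.3% of all genes did. By edgeR 0 of either list passed (4 and 1 by DESeq2, 3 and 1 by voom with quality weights). At an unadjusted p under 0.05, 6 (60%) and 7 (70%) were lower, where 4.9% of all genes were. After 1 week of IF 6 oligodendrocyte and 3 microglia markers lay below, where 11.5% of all genes did. Of these, 2 oligodendrocyte markers and 0 microglia markers fell by edgeR's test, where the rule called 0.307% of all genes. DESeq2 called 4 oligodendrocyte markers and 1 microglia marker, and so did voom. At an unadjusted p under 0.05, 6 (60%) and 2 (20%) were lower, where 4.9% of all genes were. The oligodendrocyte sum was 10221 to 12066 CPM in the 1 day libraries, 10777 to 12386 CPM in the IF libraries and 12198 to 14855 CPM in the ad libitum ones. The microglia sum was 237 to 280.0 CPM after 1 day, 215 to 338 CPM after 1 week and 337 to 368 CPM in the ad libitum group. No marker of these 2 lists was at 0 in any library. What these differences contribute to the lower endothelial values was not tested.

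Pericyte genes gave no call and little separation. Pdgfrb was at 41.7, 31.0 and 36 CPM after 1 day and 47.7, 35.7 and 45.8 CPM after 1 week of IF, against 38.1, 42.5 and 41.7 CPM. The groups overlapped (log2 fold changes of -0.17 and 0.08, adjusted p = 0.669 and 0.882). Rgs5 was at 99.0, 127 and 83.8 CPM after 1 day and 110.0, 94.1 and 96.3 CPM after 1 week, against 85.1, 111 and 122 CPM, so that its groups overlapped almost fully (-0.03 and -0.08, adjusted p = 0.954 and 0.902).

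Kcnj8 and Abcc9 encode the 2 subunits of the ATP-sensitive potassium channel of pericytes. Abcc9 had the narrowest spread of the 36 genes, with 1.19-fold between its highest and lowest library. It was at 18.3, 16.7 and 16.3 CPM after 1 day and 19.5, 17.5 and 18.1 CPM after 1 week, against 19.2, 18.4 and 18.9 CPM. The 1 day libraries were just below the ad libitum ones (-0.14, adjusted p = 0.617), and this was 1 mural gene of 10 (10%) that lay below, where 10.3% of all genes did. Kcnj8 had -0.36 and -0.22 (adjusted p = 0.581 and 0.758), and Higd1b, a mitochondrial protein gene typical of pericytes, -0.29 and -0.17 at about 1 CPM.

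Vtn had the widest differences among the pericyte genes. It was at 61.4, 40.5 and 38.2 CPM after 1 day and 86.8, 45.3 and 113 CPM after 1 week of IF, against 54.9, 91.1 and 84.8 CPM. Both IF replicate 2 and ad libitum replicate 1 were low within their groups. The log2 fold change was -0.72 after 1 day (SE 0.34, adjusted p = 0.544) and 0.09 after 1 week (SE 0.33, adjusted p = 0.947).

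Smooth muscle genes all had positive log2 fold changes after 1 week of IF, and 0 of 4 passed by edgeR, DESeq2 or voom with quality weights. At an unadjusted p under 0.05, 2 (50%) were higher, where 6.33% of all genes were. Tagln, which encodes the actin binding protein transgelin, was at 14.7, 11.6 and 24.3 CPM after 1 week of IF, against 5.13, 11.2 and 8.56 CPM in the ad libitum group. The closest libraries were at 11.6 CPM in the IF group and 11.2 CPM in the ad libitum group (log2 fold change 1.03, SE 0.40, adjusted p = 0.381). Myh11, the smooth muscle myosin heavy chain, was at 42.0, 36.7 and 59.0 CPM after 1 week, against 16.8, 31.4 and 23.6 CPM (0.94, SE 0.32, adjusted p = 0.315). These were 2 of the 10 mural genes (20%) above all ad libitum libraries, where 10.9% of all genes were.

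Acta2, the smooth muscle actin, was at 28.8, 11.9 and 38.9 CPM after 1 week of IF, against 10.1, 21.2 and 17.4 CPM, with overlap (0.71, SE 0.42, adjusted p = 0.596). Des (desmin) averaged 3.83 ± 0.781 CPM after 1 week, against 2.90 ± 0.567 CPM (n = 3 each; 0.40, adjusted p = 0.589). After the 1 day fast Tagln was at 11, 14.3 and 5.88 CPM, Myh11 at 38.0, 45.0 and 20.7 CPM and Acta2 at 15.9, 11.2 and 9.71 CPM. All 3 overlapped with the ad libitum range, with log2 fold changes of 0.33, 0.53 and -0.40 and adjusted p of 0.764, 0.585 and 0.731.

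IF replicate 3 had the highest level of any library for 5 of the 10 mural genes and for 1 of the 26 endothelial genes. Without it the log2 fold changes after 1 week were 0.68 for Tagln, 0.72 for Myh11 and 0.33 for Acta2. The same library was highest for 12 of the 14 fibroblast and meninges markers, the exceptions being Col1a1 and Lum, which peaked in ad libitum replicate 3. The 14 summed to 200.5, 165 and 99.5 CPM after 1 day and 329, 152 and 638 CPM after 1 week of IF, against 139, 329 and 378 CPM in the ad libitum group. None of these 14 was at 0, and 0 passed by edgeR, DESeq2 or voom in either comparison against ad libitum (3 and 0 at an unadjusted p under 0.05). The summed smooth muscle genes gave 68.3, 73.6 and 38.5 CPM after 1 day and 89.5, 63.2 and 127 CPM after 1 week, against 34.3, 66.9 and 52.9 CPM. The 7 perivascular macrophage markers summed to 8.72 to 15.1 CPM after 1 day and 15.4 to 36.4 CPM after 1 week, against 11.6 to 22.5 CPM in the ad libitum group. Of them 2 (28.6%) lay below all ad libitum libraries after 1 day, where 10.3% of all genes did. After 1 week 1 (14.3%) lay above them, where 10.9% of all genes did. By edgeR (1 and 2 at an unadjusted p under 0.05) or voom 0 passed, while DESeq2 called 1 higher after 1 week. How far tissue from the brain surface enters the mural values was not tested. The median log2 fold change of the 10 mural genes was -0.15 after 1 day and 0.08 after 1 week, and 0.30 after 1 week without IF replicate 2. That median is not given here without IF replicate 3, whose omission made the values of Tagln, Myh11 and Acta2 above smaller.

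**Figure D5:**
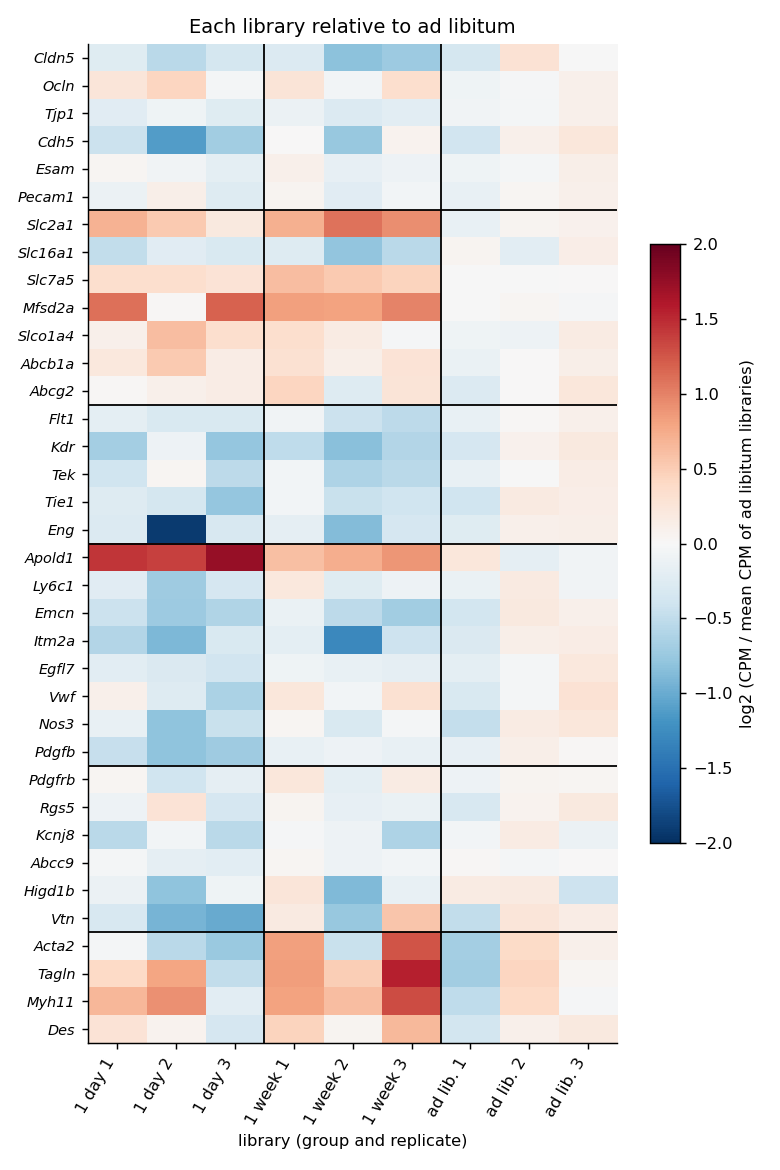
Log2 ratio of each library's CPM to the mean of the ad libitum libraries for the 36 genes, with columns for the 3 libraries of each group and rows in blocks by role (junctions, transporters, receptors, other endothelial, pericyte, smooth muscle). Apold1 is highest in the 1 day columns, Slc2a1 in the IF columns, and the smooth muscle rows in IF replicate 3; Eng in 1 day replicate 2, at 7.93 CPM, is the lowest entry of its row.

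The third comparison set 1 week of IF against the 1 day fast. By edgeR 0% of the 20535 genes passed (0 genes, with 1071 at an unadjusted p under 0.05 and 7 called by DESeq2), and 0 of the 36 vessel genes did, with 7 at an unadjusted p under 0.05. DESeq2 called 1 of them, Apold1, lower after 1 week with a log2 fold change of -0.79 (adjusted p = 0.0305; edgeR 0.853), and voom with quality weights called 0. In all, 4 endothelial genes lay higher in all IF libraries than in any 1 day library (Slc2a1, Slc7a5, Egfl7 and Pdgfb; 15.4%) and Apold1 lay lower (3.85%), where 4.5% and 3.28% of all genes did. For Slc2a1 the closest libraries were at 213 CPM after 1 week of IF and 211 CPM after 1 day (log2 fold change 0.43, adjusted p = 0.853), and for Pdgfb at 19.0 CPM after 1 week and 15.4 CPM after 1 day (0.51, adjusted p = 0.853). No mural gene was apart, and 9 of the 10 had a positive log2 fold change, with a median of 0.31, where the median of all genes was 0.00. Markers of several other tissues and cell types moved the same way. All 14 fibroblast and meninges markers had positive log2 fold changes, with a median of 1.17 and 1 marker apart, and so did all 7 perivascular macrophage markers, with a median of 1.06 and 3 apart. The 5 blood cell genes had a median of 1.39, and all 5 were higher in each IF library than in any 1 day library. None of these 3 lists had a call by edgeR (7, 5 and 5 at an unadjusted p under 0.05), DESeq2 or voom. All 9 dopaminergic neuron markers (median 0.34), all 10 microglia markers (0.20) and the 5 cortical neuron markers tested (2.42) were positive as well. Of 10 astrocyte markers 7 were positive, of 8 choroid plexus markers 5 and of 10 oligodendrocyte markers 3. The part of any of these lists in the mural values was not tested. The whole endothelial list had a median of 0.02.

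A further 35 genes known from brain endothelium, such as transcription factors of the Sox family and adhesion receptors, gave 0 calls by edgeR or voom against ad libitum. DESeq2 called 5 lower after 1 day and 1 lower after 1 week of IF. It called more genes than edgeR in the whole table as well. The totals of DESeq2 and voom over all genes, for this and the other lists, are in the last section. At an unadjusted p under 0.05, 14 (40%) were lower after 1 day, where 4.9% of all genes were. After 1 week 1 (2.86%) was higher and 10 (28.6%) were lower, where 6.33% and 4.9% of all genes were. After 1 day 14 of the 35 (40%) lay below all ad libitum libraries, where 10.3% of all genes did, and 1 above, where 8.17% did. After 1 week 6 (17.1%) lay below and 2 (5.71%) above, where 11.5% and 10.9% of all genes did. Their median log2 fold change was -0.30 after 1 day and -0.26 after 1 week of IF. The smallest p after 1 day was that of Ly6a, a surface marker at 12, 11.3 and 12.6 CPM after 1 day, against 18.4, 20.8 and 20.3 CPM in the ad libitum group (log2 fold change -0.73, adjusted p = 0.138). Slc38a3, a glutamine carrier, came next (-0.83, adjusted p = 0.187). Which cells of the lysate the RNA of these 35 genes came from was not measured. After 1 week the smallest belonged to Cd93, an adhesion receptor (-0.67, adjusted p = 0.159), and Pltp, a phospholipid transfer protein (-0.66, adjusted p = 0.226).

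Of 18 arterial, venous and leaky vessel markers 16 were in the table. By edgeR 0 passed, and DESeq2 called 1 after 1 day, 0 after 1 week. At an unadjusted p under 0.05, 3 (18.8%) were lower in each comparison against ad libitum, where 4.9% of all genes were. Plvap, the diaphragm protein of leaky vessels that barrier endothelium lacks, was at 8.56, 2.30 and 8.85 CPM after 1 day and 8.89, 7.42 and 6.79 CPM after 1 week, against 7.77, 9.69 and 7.86 CPM, with overlap. The smallest p-values of this list were those of the amino acid carrier gene Slc38a5, which is also among the 35 above (log2 fold change -1.54 after 1 day, adjusted p = 0.325), the peptide hormone gene Apln (-0.54, adjusted p = 0.532) and, after 1 week, the arterial gene Gkn3 (-1.45, adjusted p = 0.239). Among 21 further mural genes 0 passed by edgeR, and DESeq2 called 0 after 1 day and 1 after 1 week. At an unadjusted p under 0.05, 1 (4.76%) was lower after 1 day, where 4.9% of all genes were. After 1 week 2 (9.52%) were higher, where 6.33% of all genes were. Anpep, a peptidase of pericytes, had the smallest p after 1 day (-1.30, adjusted p = 0.508), and the myosin light chain kinase gene Mylk after 1 week (0.84, adjusted p = 0.204).

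Genes that signal to the vessel wall, such as VEGF, angiopoietin, Notch, Wnt and TGF-beta components, gave 1 call in 30 by edgeR in each comparison against ad libitum, a gene that fell. The same rule called 0.0584% of all genes after 1 day and 0.307% after 1 week. The list was chosen with earlier results of these data known, so the counts describe it and do not test it. At an unadjusted p under 0.05 there were 2 higher (6.67%) and 5 lower (16.7%) after 1 day, where 4.37% and 4.9% of all genes were. After 1 week of IF there were 6 higher (20%) and 3 lower (10%), where 6.33% and 4.9% of all genes were. DESeq2 and voom also called 1 lower in each comparison, and after 1 week DESeq2 called 2 higher and voom 1. Cxcl12, a chemokine made by endothelium and other cells, was at 41.5, 42.4 and 37.7 CPM after 1 day and 53.1, 45.2 and 47.2 CPM after 1 week of IF, against 73.9, 84.7 and 72.0 CPM in the ad libitum group. It fell in both comparisons, by 0.92 after 1 day (SE 0.11, adjusted p = 0.0160) and by 0.66 after 1 week (SE 0.11, adjusted p = 0.0381) on the log2 scale, and no library overlapped. The 1 day call was lost without 1 day replicate 1 or 3 (adjusted p = 0.116 and 0.0996), the 1 week call without 1 day replicate 1 (0.0659), IF replicate 2 or 3 (0.172 and 0.185) or both libraries that stood apart (0.0617), and both calls without any 1 of the ad libitum libraries (0.102 to 0.198). Notch4, the Notch receptor of endothelium, was at 22.6, 32.1 and 30.5 CPM after 1 week, against 11, 14.3 and 16.2 CPM, but missed the threshold (log2 fold change 1.03, SE 0.21, adjusted p = 0.0839 by edgeR and 0.000543 by DESeq2). Fzd4, a Wnt receptor of endothelium named after its values were seen, was at 23.6, 23.5 and 27.3 CPM after 1 week, against 15.3, 15.6 and 18.7 CPM, and was the gene called higher by voom (log2 fold change 0.59, SE 0.12 and adjusted p = 0.0910 by edgeR, 0.00127 by DESeq2 and 0.0431 by voom). Acvrl1, a BMP receptor of endothelium, had the next smallest p after 1 day (-0.53, adjusted p = 0.337).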

How the data were processed

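Per the labels' protocols, polyA RNA of substantia nigra lysate was made into directional libraries. Per the submitters' processing notes, Salmon and DESeq2 1.40.2 were used with the builds GRCm39 and mm39. The annotation and the filters behind the table are not stated there. The authors deposited estimated counts per gene as whole numbers, not scaled to depth, so none were rounded.

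From these counts edgeR 4.0.16 (R 4.3.3) fitted all 9 libraries with TMM factors and a robust quasi-likelihood model. filterByExpr (minimum count 10, total 15) removed 56 of 20591 rows and left 20535. Tests were two-sided with Benjamini-Hochberg adjustment over all genes and a threshold of 0.05. At an unadjusted p under 0.05, 4.37% of all genes were higher and 4.9% lower after 1 day. After 1 week of IF 6.33% were higher and 4.9% lower, and for IF against 1 day 3.53% and 1.69%. CPM is on the TMM scale, and log2 fold changes are edgeR's. Each SE is the absolute log2 fold change divided by the square root of edgeR's F statistic. Exon lengths came from a GRCm38 annotation and promoters from RefSeq GRCm38.p6. Groups were called apart when no library of one lay within the range of the other. The fits were tested on simulated data.

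The genes and lists were chosen with earlier results of these data known. All 36 are described. Of further vessel lists the text names genes past the test and those with the smallest p-values against ad libitum. Markers of other tissue are given by counts and sums. Alternatives were DESeq2 1.42.0, limma 3.58.1 voom with quality weights, RLE factors, no filter, 1 CPM in at least 6 libraries, the compared groups alone, a replicate block, each library left out, and both libraries that stood apart left out. For genes outside the 36 these alternatives were added after seeing the data.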

Additional observations from a re-analysis of the deposited data

How the results depend on the processing

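After 1 day edgeR called 12 genes in all and 1 of the 36. DESeq2 called 184 and 3, voom with quality weights 57 and 2, the fit without both libraries that stood apart 50 and 2, and the compared groups alone 26 genes. Leaving out each replicate in turn gave 0 to 22 genes and 0 to 2 of the 36, and an endothelial median between -0.34 and -0.18 (-0.27 with all). After 1 week of IF edgeR called 63 and 2, DESeq2 463 and 4, voom 218 genes and the compared groups alone 155. Leaving out each replicate gave 8 to 121 genes and 0 to 3 of the 36. For 1 week against 1 day edgeR called 0 and 0, DESeq2 7 and 1, and leaving out each replicate gave 0 to 3 genes. Without both libraries that stood apart the endothelial median there was 0.18, against 0.02.

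With the replicate number as a replicate block, 2 genes and 0 of the 36 passed after 1 day and 32 and 0 after 1 week, with adjusted p of 0.0628 for Apold1 after 1 day, 0.0921 for Slc2a1 and 0.105 for Slc7a5 after 1 week, of 0.0628 and 0.0908 for Cxcl12 after 1 day and 1 week, and of 0.0595 for Gjb6 after 1 week. In their deviations from the group means, 1 day replicate 2 and IF replicate 2, the libraries that stood apart, correlated at r of 0.437, the highest of any pair. The other same-numbered libraries correlated at -0.198 to 0.203 and differently numbered ones at -0.334 to 0.258, so the number was not taken as a pairing.

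No called value changed sign under any alternative run. RLE factors and either change of the filter kept all counts within 1.5 times those given. With 3 libraries a group, smaller fold changes could be missed. The cause of the differences between settings was not tested.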
